A study of Mus musculus with 8 samples.

Results

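Nuclear receptor genes were examined in maps of histone H3 acetylated at lysine 27 (H3K27ac, found at promoters and enhancers in use) from the mouse adrenal gland. The 33 receptors were taken from a list of names and located by their GENCODE coordinates on GRCm38, out of 21938 protein-coding genes. A receptor's promoter was called in a library when a deposited peak lay within 1 kb of any of its annotated transcription starts, and its gene body coverage was the percent of the gene's length inside peaks. Whole glands of C57BL/6J mice, an inbred strain with no transgene or treatment named in the labels, were pooled for 7 libraries, and the design asks how acetylated regions differ with age and sex. The E18.5 library held 30 embryonic glands with no sex given. Postnatal day 1 (P1) had a female and a male library of 22 glands each, 2 weeks a female and a male library of 12 glands each, and 12 weeks a female and a male library of 6 glands each. Each group is thus 1 library of pooled glands, so no value has a replicate, the 2 libraries of a postnatal age differ in sex, and no receptor was tested between groups. Where 2 values are given for a postnatal age, the female library comes first. In bulk tissue, fewer cells of a type and less signal per cell cannot be told apart.

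Nuclear receptors are transcription factors, many of which are switched by a small fat-soluble ligand such as a steroid, thyroid hormone, retinoic acid, a bile acid or a fatty acid. Retinoid X receptors (RXRs) pair with many other receptors on DNA, while steroid receptors mostly bind as pairs of themselves, and orphan receptors have no settled ligand. Without ligand many receptors recruit corepressors with a histone deacetylase, and with ligand they recruit coactivators, some of which acetylate histone H3. The adrenal cortex makes steroid hormones from cholesterol, and the medulla makes catecholamines.

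The 7 peak lists covered 56.0 Mb (P1 male) to 131 Mb (12-week female), and the E18.5 list stood apart in having the most peaks (108336, against 44250 to 67971) with 71.8% of them under a −log10 q of 2, against 29.5% to 52.2% in the others. The files hold no read counts, so the depth is unknown and a missing peak does not show that acetylation was absent. The tissue label was checked against markers. Promoters of adrenal cortex markers were called in 7 or 8 of 8 per list and endothelial ones in 5 of 5 in every list. Of 6 chromaffin markers 3 to 6 were called. Of 8 liver markers 0 to 2 were called, with Alb, Apob, Fgb and Serpina1a in no list, and of 8 kidney markers 4 were called at E18.5 and 0 later. Cortex and endothelial calls were also counted with peaks of −log10 q 5 or more. Cortex calls were 2 at E18.5, 2 and 3 at P1, 6 and 7 at 2 weeks, and 8 and 7 at 12 weeks. Endothelial calls were 1 at E18.5, 0 and 1 at P1, 3 and 2 at 2 weeks, and 4 and 1 at 12 weeks.

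Sequences from RefSeq (GRCm38.p6) are shown for promoters that differ between lists (Rxra internal, Rorb, Rxrg), beside promoters called in all 7 lists (Rxra upstream, Esrrg middle, Nr0b2) and a promoter called in none (Nr5a2 upstream). Each is the 250 bases before a RefSeq start, 5′ to 3′. Capitals mark each CG pair and each match to AGGTCA on either strand (TGACCT is the same element on the other strand), the 6-base element that many receptors bind.
Rxra upstream start (chr2:27676951-27677200, plus strand): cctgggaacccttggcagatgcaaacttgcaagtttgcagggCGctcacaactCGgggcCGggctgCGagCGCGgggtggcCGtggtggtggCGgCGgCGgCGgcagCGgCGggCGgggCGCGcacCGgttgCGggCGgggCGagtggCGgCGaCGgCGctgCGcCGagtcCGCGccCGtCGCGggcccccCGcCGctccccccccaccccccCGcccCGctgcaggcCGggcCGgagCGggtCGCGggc
Rxra internal start (chr2:27709042-27709291, plus strand): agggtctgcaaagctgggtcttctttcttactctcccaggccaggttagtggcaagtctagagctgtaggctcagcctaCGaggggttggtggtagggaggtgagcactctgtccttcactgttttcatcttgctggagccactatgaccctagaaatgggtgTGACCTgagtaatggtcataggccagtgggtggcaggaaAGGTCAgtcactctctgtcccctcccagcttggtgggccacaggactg
Esrrg middle start (chr1:187651508-187651757, plus strand): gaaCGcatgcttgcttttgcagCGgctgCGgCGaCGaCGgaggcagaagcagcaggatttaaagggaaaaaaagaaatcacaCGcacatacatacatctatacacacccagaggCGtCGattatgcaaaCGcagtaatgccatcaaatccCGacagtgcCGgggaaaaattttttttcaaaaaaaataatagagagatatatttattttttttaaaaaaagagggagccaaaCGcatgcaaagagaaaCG
Nr0b2 start (chr4:133553126-133553375, plus strand): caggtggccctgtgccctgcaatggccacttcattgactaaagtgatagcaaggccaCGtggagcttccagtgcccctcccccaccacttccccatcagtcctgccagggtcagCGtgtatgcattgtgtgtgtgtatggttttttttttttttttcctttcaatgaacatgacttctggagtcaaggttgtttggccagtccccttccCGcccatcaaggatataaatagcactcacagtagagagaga
Rorb upstream start (chr19:19111197-19111446, minus strand): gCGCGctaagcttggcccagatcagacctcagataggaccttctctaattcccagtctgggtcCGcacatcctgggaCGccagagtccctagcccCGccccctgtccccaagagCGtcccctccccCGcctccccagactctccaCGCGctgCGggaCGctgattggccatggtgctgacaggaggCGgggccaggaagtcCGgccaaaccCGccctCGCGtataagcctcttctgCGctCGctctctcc
Rxrg upstream start (chr1:167598112-167598361, plus strand): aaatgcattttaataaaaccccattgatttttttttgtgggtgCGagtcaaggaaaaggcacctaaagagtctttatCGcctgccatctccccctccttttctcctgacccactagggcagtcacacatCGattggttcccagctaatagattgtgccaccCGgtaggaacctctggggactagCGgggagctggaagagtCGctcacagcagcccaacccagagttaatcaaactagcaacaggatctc
Rxrg downstream start (chr1:167618015-167618264, plus strand): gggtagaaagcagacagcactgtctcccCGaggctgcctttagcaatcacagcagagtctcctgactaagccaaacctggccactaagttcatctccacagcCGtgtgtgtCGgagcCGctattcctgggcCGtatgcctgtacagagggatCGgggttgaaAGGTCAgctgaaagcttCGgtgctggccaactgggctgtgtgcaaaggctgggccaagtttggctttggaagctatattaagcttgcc
Nr5a2 upstream start (chr1:136960449-136960698, minus strand): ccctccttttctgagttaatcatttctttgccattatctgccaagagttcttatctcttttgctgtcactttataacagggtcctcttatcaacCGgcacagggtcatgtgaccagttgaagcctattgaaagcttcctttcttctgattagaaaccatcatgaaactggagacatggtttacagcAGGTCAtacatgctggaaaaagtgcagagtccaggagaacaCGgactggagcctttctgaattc
The upstream Rxra window held 40 CG pairs and lay by a peak in all 7 lists, while the internal Rxra window held 1 CG pair and 2 AGGTCA matches and was called only at E18.5 and in both 12-week lists. The Rorb window, with 18 CG pairs, was called in 5 lists. Nr0b2 was called in all 7 lists with 3 CG pairs in its window. The upstream Nr5a2 window, called in no list, had 2 CG pairs and 1 AGGTCA match.

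RefSeq windows were matched for 31 of the 33 receptors (48 windows). Those called in all 7 lists had a median of 17 CG pairs, those called in some lists 6.5 and those called in none 4. Over all 32851 RefSeq windows the medians were 16, 4 and 2, so the receptors followed the same order as other genes. AGGTCA was present in 6 of the 48 receptor windows (12.5%) and in 14.0% of all windows of that length. 3 longer elements, which overlap the first, were searched on both strands: CAAGGTCA (an extended form), AGGTCANAGGTCA (a direct repeat) and GGTCANNNTGACC (an estrogen receptor palindrome). They were found in 0 receptor windows, and in 1.33%, 0.0335% and 0.0639% of all windows. No match says only that these letters were not in the window.

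Promoters of 20 of the 33 receptors were called in all 7 lists, against 55.5% of protein-coding genes. These were Thra, Rara, Rarb, Rarg, Ppara, Ppard, Rora, Nr1h4, Rxra, Rxrb, Nr2c1, Nr2c2, Nr2f1, Nr2f6, Esr1, Esrra, Nr3c2, Nr5a2, Nr6a1 and Nr0b2. A further 12 were called in some lists (background 19.4%): Rorb, Vdr, Nr1i2, Hnf4a, Hnf4g, Rxrg, Nr2e1, Nr2e3, Esr2, Esrrb, Esrrg and Pgr. Nr1i3 alone was called in no list (background 25.1%). Per list, 31 receptors were called at E18.5 (background 71.6%), 23 and 24 at P1 (59.8% and 60.6%), 25 and 25 at 2 weeks (61.5% and 61%), and 26 and 24 at 12 weeks (65.1% and 61.1%). Without the E18.5 list the classes held 20, 9 and 4 receptors, against 56% of genes called in all 6 postnatal lists and 32.5% in none.

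**Figure D1:**
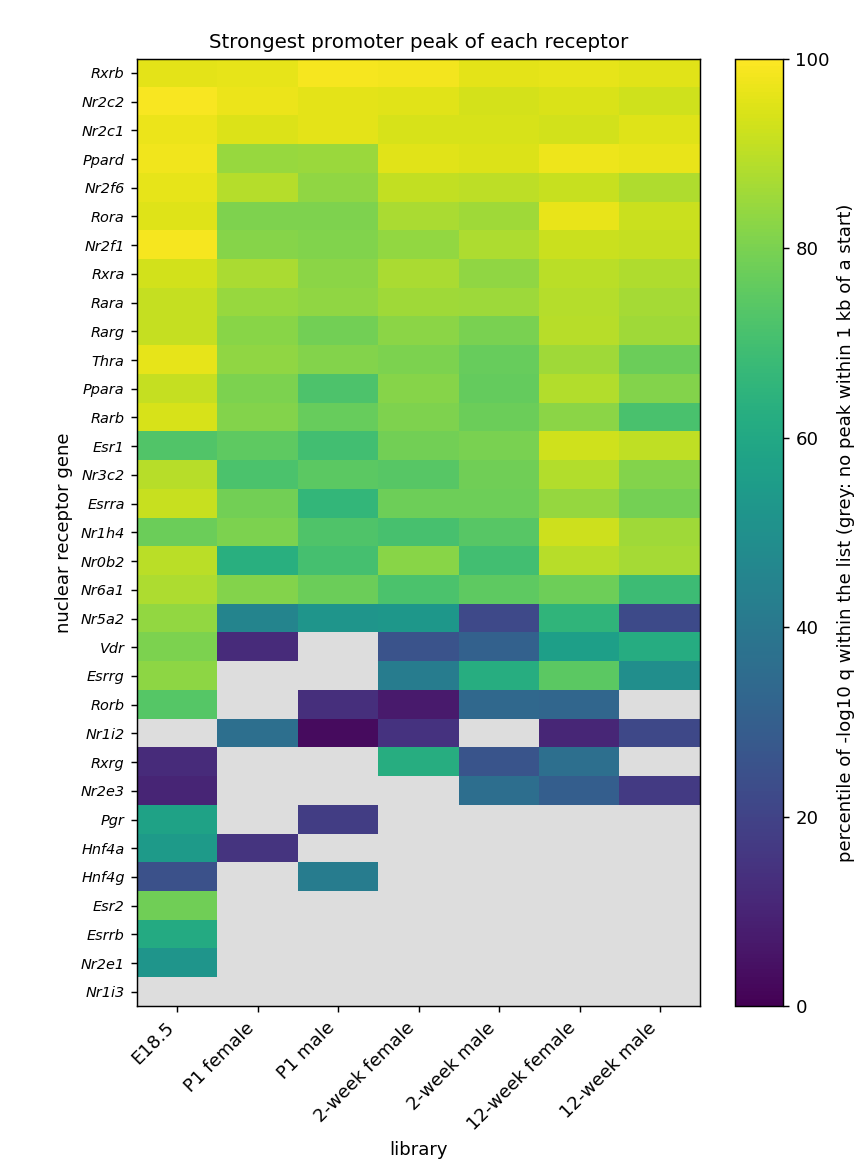
Strength of the strongest promoter peak of each of the 33 receptors (rows) in each of the 7 libraries (columns), as the percentile of its −log10 q among all peaks of the same list; grey means no peak within 1 kb of a start. The lists differ in length, so colours in different columns show no change. The upper 20 rows are filled in all 7 columns, with Rxrb, Nr2c1 and Nr2c2 above 92 throughout, and the 3 rows Esr2, Esrrb and Nr2e1 are filled at E18.5 alone.

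Held to stronger peaks (−log10 q of 5 or more), the receptors were called no more often than other genes at E18.5, at P1 and in 2-week males. Then 14 receptors were called at E18.5 (background 47.2%), 10 and 13 at P1 (40.2% and 45.3%), 16 and 13 at 2 weeks (48.3% and 44.9%), and 20 and 17 at 12 weeks (54.6% and 45.9%), females before males. Only 9 receptors stayed in the class called in all 7 lists (background 36.7%): Rara, Rarg, Ppard, Rxra, Rxrb, Nr2c1, Nr2c2, Nr2f1 and Nr2f6. At that level 13 receptors were called in no list (background 43.9%). Nr1h4 was then called in both 12-week lists alone, and Esr1 in both 2-week and both 12-week lists.

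**Figure D2:**
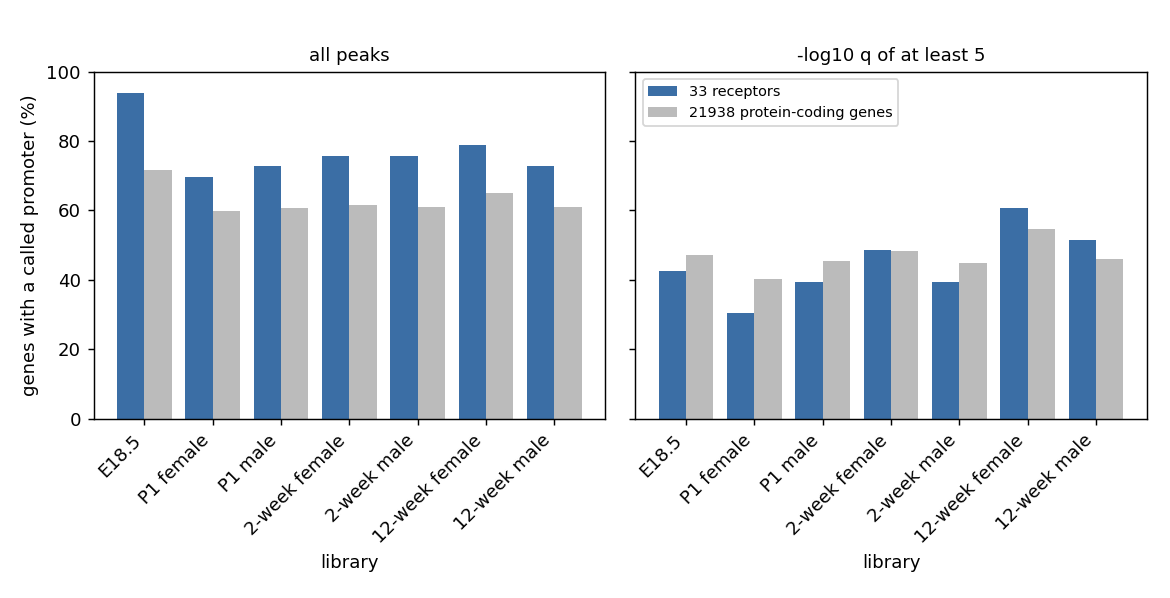
Percent of the 33 receptors (blue) and of 21938 protein-coding genes (grey) with a called promoter in each library, using all peaks (left) and only those of −log10 q 5 or more (right). With all peaks the blue bar is above the grey bar in all 7 libraries, and with the stronger peaks it is below it at E18.5 and P1 and in the 2-week males. The shares are not adjusted for the number of start sites per gene.

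Many receptor genes have several promoters. When starts whose 1 kb windows touched were joined, the 33 genes had 86 separate start sites, and 28 genes had more than 1. The 21938 protein-coding genes had 44468 sites, and 11206 of them had more than 1. More sites give a gene more windows in which a peak can be called, and the shares of called genes were not adjusted for this. Of the 86 receptor sites 30 were called in all 7 lists, 29 in some and 27 in none, against 30.7%, 26.6% and 42.7% of the sites of all protein-coding genes. In 16 receptors a site called in all 7 lists stood beside a site called in fewer (57.1% of those with more than 1 site, background 64.8%), and in 12 beside a site called in none (42.9%, background 45.2%).

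The RXRs are the shared partners. Rxra (chr2:27676440-27762957) was in peaks over 56.0% of its length at E18.5, 26.3% and 33.9% at P1, 39.1% and 37.4% at 2 weeks, and 74.8% and 56.2% at 12 weeks. The 12-week lists were highest and the P1 lists lowest, and the postnatal ages did not overlap. Its upstream and most downstream start sites were called in all 7 lists, and the site 32.9 kb from the 5′ end in neither P1 list. Rxra ranked between percentiles 92.0 and 96.0 of protein-coding genes in every list. When every list was held to the same covered length (56.0 Mb, strongest peaks first), its mean difference between 12 weeks and P1 went from 35.4 to -3.07 points.

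The promoter peak of Rxrb, like those of Nr2c1 and Nr2c2, ranked above percentile 92 in every list, and its −log10 q was 13.6 at E18.5, 13.2 and 21.5 at P1, 21.5 and 14.9 at 2 weeks, and 26.2 and 12.1 at 12 weeks. A start of Slc39a7 lies within 2 kb of a start of Rxrb, so peaks there cannot be told apart between the genes. The same holds where another protein-coding gene overlaps the receptor, as for Rarb (Top2b), Nr1i3 (Tomm40l), Nr2c2 (Mrps25), Nr2f6 (Ocel1), Esrra (Trmt112) and part of Thra. No other protein-coding gene overlaps Nr6a1, but a peak region that holds a start of another gene reaches its 3′ end. Rxrg was called at E18.5 (−log10 q 1.17), in both 2-week lists (3.23 and 1.52) and in 12-week females (2.24), and in neither P1 list nor in 12-week males. Of the starts shown above, the upstream was called at E18.5 and in 2-week and 12-week females, and the downstream in both 2-week lists and in 12-week females.

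Among thyroid hormone and retinoic acid receptors, Rara and Thra had the highest mean coverage over the 7 lists, and Rarg lay above Thra at 12 weeks. Rara coverage was 70.3% at E18.5, 55.5% and 67.2% at P1, 71.7% and 67.9% at 2 weeks, and 80.6% and 82.9% at 12 weeks, with the highest mean of the 33. Each later postnatal age lay above the one before, with no overlap between ages. Thra, the thyroid hormone receptor alpha gene, was covered over 56.7% at E18.5, 38.9% and 50.9% at P1, 52.4% and 58.2% at 2 weeks, and 63.4% and 55.2% at 12 weeks. Both P1 values were below both 12-week values, while the 2-week and 12-week values overlapped. Rarg coverage was 53.8% at E18.5, 31.0% and 37.5% at P1, 50.4% and 48.1% at 2 weeks, and 70.7% and 57.7% at 12 weeks, again with no overlap between the 3 postnatal ages. With the same covered length per list, Rara (54.5% and 67.2% at P1, 76.4% and 81.3% at 12 weeks), Thra and Rarg still lay higher in both 12-week lists than in both P1 lists, and the 2-week and 12-week values of Rarg overlapped.

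Rarb differed from these in where it was marked. Its upstream start site (chr14:16819005-16819156) was called in no list, and the site 243 kb further along the gene in all 7, at a −log10 q of 9.52 at E18.5, 4.82 and 5.19 at P1, 6.69 and 4.87 at 2 weeks, and 8.98 and 3.87 at 12 weeks. Its coverage did not exceed 8.21% in any list.

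Of 14 genes that make, carry and degrade retinoic acid, promoters of 4 were called in all 7 lists (background 55.5%), 9 in some (19.4%) and 1 in none (25.1%). At E18.5 12 were called (background 71.6%), against 5 to 9 in the postnatal lists (59.8% to 65.1%). With peaks of −log10 q 5 or more the E18.5 list no longer stood out. It then held 2 of the 14 (background 47.2%), and the postnatal lists 1 to 4 (40.2% to 54.6%). The 4 called in all lists were Aldh1a2 and Aldh1a3, which make retinoic acid, Rdh10, which makes its retinaldehyde precursor, and Dhrs3, which reduces retinaldehyde. These 4 were named after their values had been seen.

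The largest coverage difference between P1 and 12 weeks was that of Nr0b2, described here beside the receptors of fatty acids and bile acids. Nr0b2 (chr4:133553376-133556536), which encodes SHP, a repressor of other receptors that is known for its role in bile acid feedback, is 3161 bases long. Its coverage was 39.4% at E18.5, 32.5% and 44.1% at P1, 52.5% and 46.5% at 2 weeks, and 100% in both 12-week lists. The promoter peak was 1055 bases wide at E18.5, 1788 and 2089 at P1, 3032 and 2632 at 2 weeks, and 6588 and 6353 at 12 weeks. Coverage was at its ceiling in both sexes at 12 weeks, so it cannot show a difference between them. No earlier list reached the 12-week coverage or width. The −log10 q of the promoter peak at 12 weeks was 15.4 in females and 7.81 in males. With peaks of −log10 q 5 or more the P1 coverage was 0% in both sexes and the 12-week coverage 100% in both. The mean difference between 12 weeks and P1, 61.7 points, was the largest of the 33, and it was also 61.7 with the same covered length per list.

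Nr1h4 (chr10:89454234-89533585) encodes the bile acid receptor FXR, of which Nr0b2 is a known target in the liver. Its upstream start was called in all 7 lists and its other start site, 26.9 kb downstream, in none. Coverage was 1.89% at E18.5, 4.14% and 5.16% at P1, 5.01% and 4.55% at 2 weeks, and 22.6% and 14.0% at 12 weeks. The 12-week values stood above all others, and the other postnatal values overlapped. The −log10 q of its promoter peak was 2.23 at E18.5, 4.48 and 4.03 at P1, 4.12 and 4.06 at 2 weeks, and 19.2 and 7.40 at 12 weeks. When every list was cut to the same number of top peaks (44244, the length of the shortest on the chromosomes used), that peak stood at percentiles 78.1 and 72.6 at P1 and 88.2 and 82.7 at 12 weeks. Coverage did not keep its order with the same covered length, with 3.31% and 5.16% at P1 against 2.86% and 6.32% at 12 weeks.

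Ppard, a fatty acid receptor, was covered over 41.3% at E18.5, 18.8% and 24.8% at P1, 25.2% and 23.5% at 2 weeks, and 40.9% and 44.2% at 12 weeks. E18.5 lay between the 12-week values, and the ages between were lower. With the same covered length per list its difference between 12 weeks and P1 went from 20.8 to -1.25 points. Ppara, its relative that drives fat oxidation in the liver, had a called promoter in all 7 lists but coverage between 1.53% and 6.29%.

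Nr5a2 (LRH-1), a close relative of the main steroidogenic factor of the adrenal, was called in all 7 lists at a start site 10.9 kb inside the gene and in none at its upstream start. At equal covered length it was called at E18.5, in both P1 lists and in 2-week females only, and with peaks of −log10 q 5 or more in no list. Its promoter peak was weak, with a −log10 q of 2.70 at E18.5, 1.81 and 2.17 at P1, 2.67 and 1.45 at 2 weeks, and 4.05 and 1.44 at 12 weeks. The groups overlapped. Coverage was 2.54% at E18.5, 1.62% and 2.09% at P1, 5.26% and 3.37% at 2 weeks, and 8.83% and 4.07% at 12 weeks, with females above males at 2 and 12 weeks and below them at P1.

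**Figure D3:**
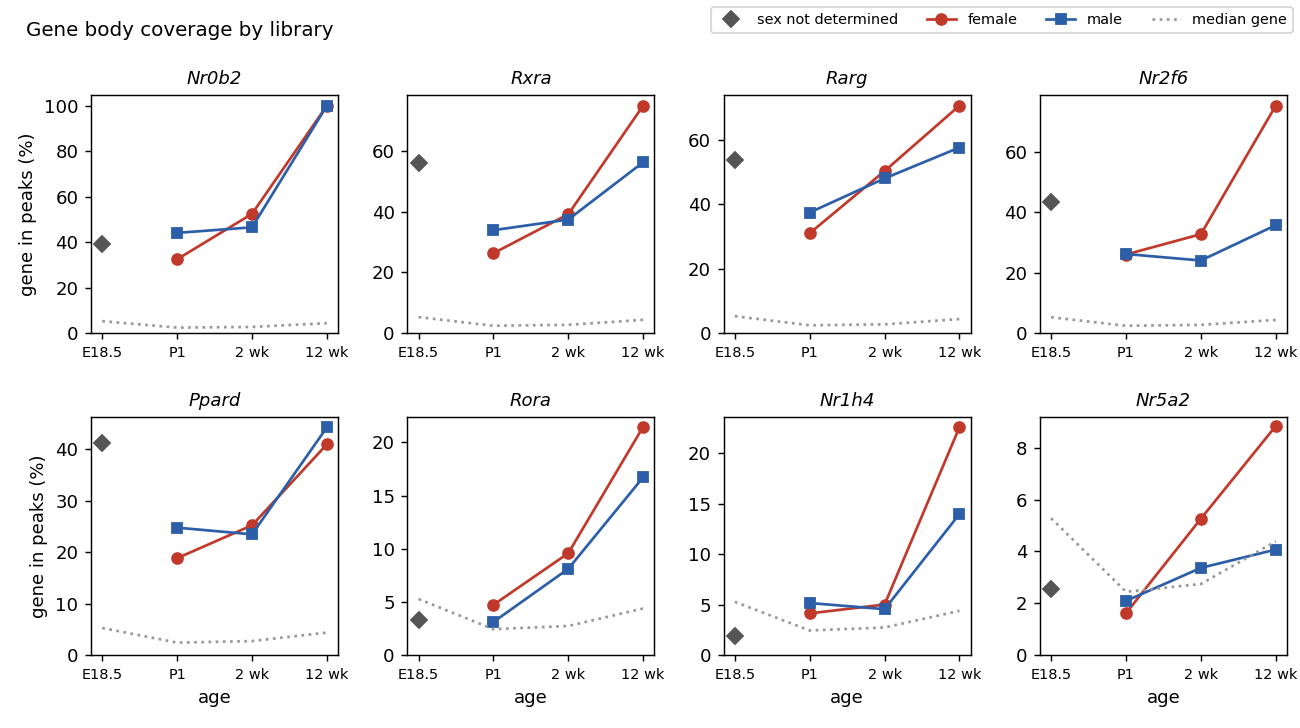
Percent of the gene in peaks by age for 8 receptors, with females in red, males in blue, the E18.5 pool as a grey diamond and the median protein-coding gene dotted (mean of the sexes). The first 5 have the largest differences between 12 weeks and P1; Rora, Nr1h4 and Nr5a2 were added after their values had been seen. Nr0b2 reaches 100% in both 12-week libraries, and the vertical scales differ between panels.

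Promoters of the liver-enriched receptor Hnf4a, its relative Hnf4g and the xenobiotic receptors Nr1i2 (PXR) and Nr1i3 (CAR) were weakly marked or not called. The −log10 q of the Hnf4a promoter peak was 1.62 at E18.5 and 1.27 in P1 females, with no call in the other 5 lists. Away from its promoters, Hnf4a held stronger peaks. Those of −log10 q 5 or more covered 0.694% of the gene in the 12-week female list and 0.372% in the male one. No earlier list had such a peak in the gene. Hnf4g was called at E18.5 (1.28) and in P1 males (1.81). Nr1i2 was called at both P1 lists (1.62 and 1.11), in 2-week females (1.59) and in both 12-week lists (1.5 and 1.42). Nr1i3 had no promoter peak in any list. The kidney markers given above were called at E18.5, where Hnf4a and Hnf4g were also called, and their part was not tested. Of the liver markers, the E18.5 and 12-week female lists held 2 each, that of P1 females 1 and the other lists 0.

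Vdr, the vitamin D receptor, was called in all lists but that of P1 males, with a −log10 q of 2.39 at E18.5, 1.23 in P1 females, 1.81 and 1.62 at 2 weeks, and 3.21 and 2.96 at 12 weeks. Its coverage was 11.7% at E18.5, 0.744% and 1.01% at P1, 3.19% and 2.35% at 2 weeks, and 6.51% and 8.96% at 12 weeks, without overlap between the 3 postnatal ages. At equal covered length the order turned: the P1 values stayed and coverage was 0% in all 2-week and 12-week lists.

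Among the steroid receptors, Esr1 (chr10, estrogen receptor alpha) and Nr3c2 (the mineralocorticoid receptor, which binds the adrenal hormone aldosterone) were called in all 7 lists, and Esr2 and Pgr were not. The −log10 q of the strongest Esr1 promoter peak was 2.04 at E18.5, 3.44 and 3.56 at P1, 6.03 and 5.59 at 2 weeks, and 19.5 and 9.41 at 12 weeks. At E18.5 this was a peak at another start site inside the gene, and at the start that was strongest in the other lists E18.5 had 1.16. The postnatal ages did not overlap. With lists of the same number of top peaks its percentile was 72.6 and 69.8 at P1 and 88.6 and 88.7 at 12 weeks. For Nr3c2 the −log10 q was 4.04 at E18.5, 3.02 and 4.55 at P1, 4.65 and 5.15 at 2 weeks, and 14.1 and 6.02 at 12 weeks. Its coverage was higher at each later postnatal age but did not exceed 2.60%, and it kept that order with the same covered length. Esr2 (estrogen receptor beta) was called at E18.5 alone, at a −log10 q of 2.26. Pgr, the progesterone receptor, was called at E18.5 (1.67) and in P1 males (1.29) and had no peak in its body in any later list.

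The estrogen-related receptors, which regulate genes of mitochondrial energy metabolism, divided into 3 patterns. Esrra was called in all 7 lists, with coverage of 26.8% at E18.5, 16.0% and 14.0% at P1, 18% and 21.1% at 2 weeks, and 21.8% and 17.2% at 12 weeks. Esrrb was called at E18.5 alone, at a −log10 q of 1.73. Esrrg was called at E18.5 (2.60), in both 2-week lists (2.24 and 2.67) and in both 12-week lists (5.66 and 2.23), and in neither P1 list. The value of 12-week males is that of another start site than the rest, and at the upstream start they had 1.11. A further Esrrg start in RefSeq that the GENCODE release does not list, the middle start shown above, was called in all 7 lists, so with both annotations the class of all 7 lists held 21 receptors. The start site 389 kb inside Esrrg was called in the 12-week lists alone (chr1:187997426-187998241), at a −log10 q of 3.76 and 2.23.

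**Figure D4:**
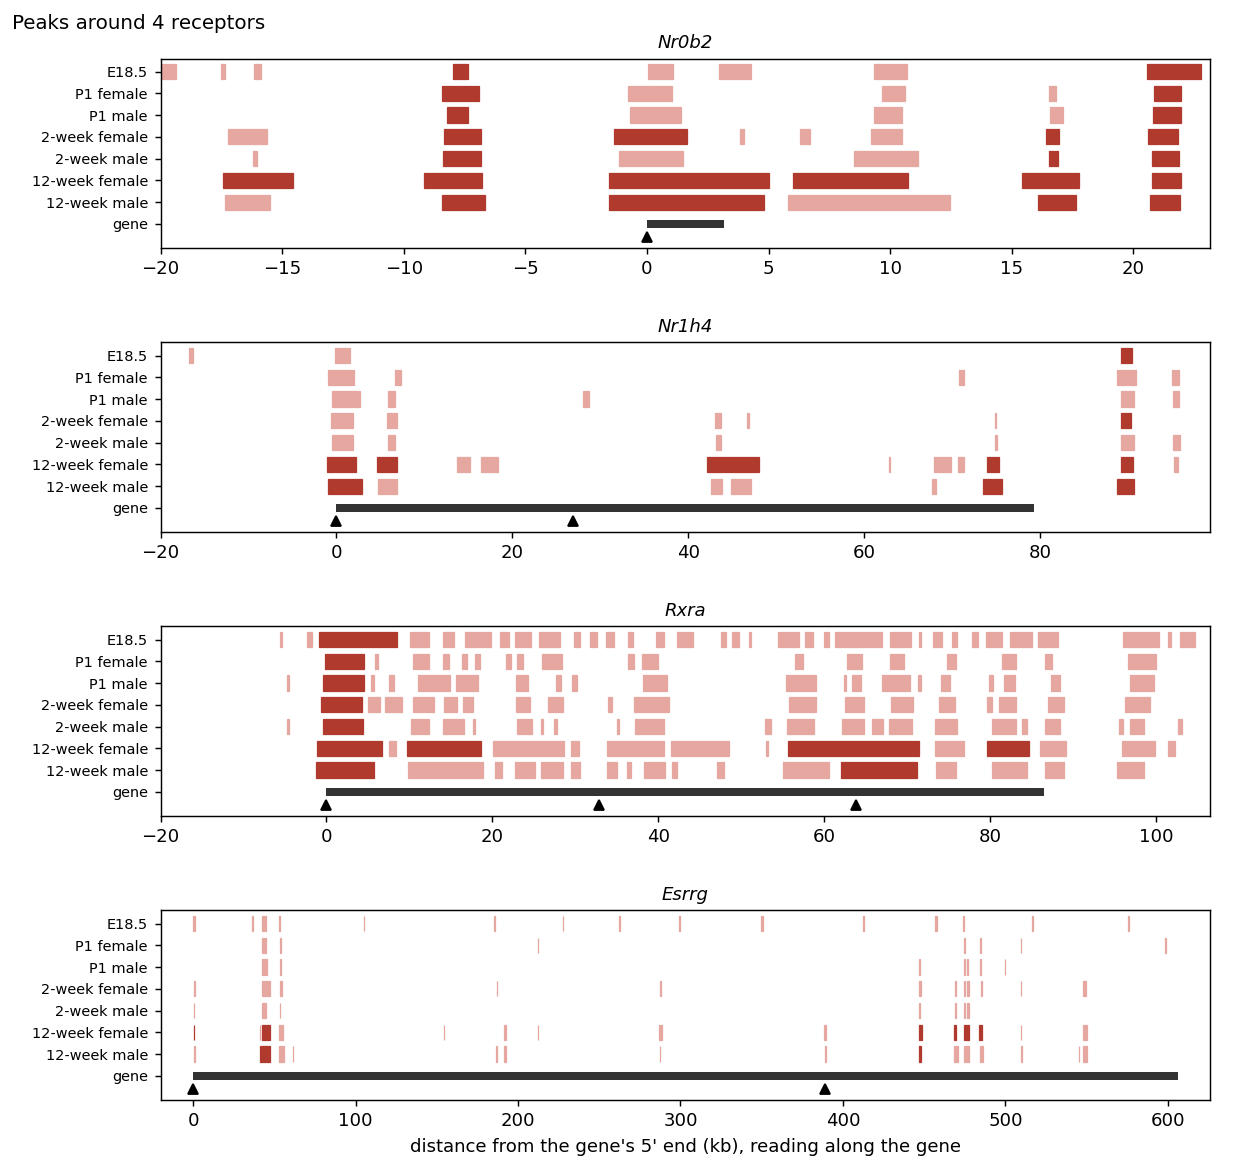
Peaks of the 7 libraries around Nr0b2, Nr1h4, Rxra and Esrrg, by distance in kb from the gene's 5′ end, in dark red where the −log10 q reached 5 and in light red below that; the black bar is the gene and each triangle a separate GENCODE start site. At 12 weeks the peak at the Nr0b2 start spans the gene, and peaks inside Nr1h4 and Rxra are wider or more numerous than at P1.

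Of the remaining receptors, Rora, which is known for its part in circadian and lipid gene control, was the longest gene (734461 bases). Its coverage was 3.35% at E18.5, 4.73% and 3.12% at P1, 9.58% and 8.12% at 2 weeks, and 21.5% and 16.7% at 12 weeks, with no overlap between the 3 postnatal ages. At equal covered length it was 4.29% and 3.12% at P1, 5.25% and 5.68% at 2 weeks, and 5.22% and 6.32% at 12 weeks, so that 2 and 12 weeks overlapped. Its percentile among protein-coding genes was 61.2 and 54.4 at P1 and 77.8 and 78.4 at 12 weeks. Upstream and downstream start sites were called in all 7 lists, and a site 542 kb from the 5′ end in the 2-week and 12-week lists alone (chr9:69188640-69196130). That region had a −log10 q of 2.48 in females and 3.10 in males at 2 weeks, then 4.64 and 2.99 at 12 weeks. Rorb was called at E18.5 (2.06), in P1 males (1.21), at 2 weeks (1.45 and 1.68) and in 12-week females (2.11), and its coverage did not exceed 0.728% in any list.

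The orphan receptors Nr2c1, Nr2c2, Nr2f1, Nr2f6 and Nr6a1 were called in all 7 lists. Nr2c2 had a −log10 q of 25.1 at E18.5, 13.9 and 16.7 at P1, 16.8 and 13.0 at 2 weeks, and 22.5 and 10.5 at 12 weeks, with overlap between ages. In lists cut to the same number of top peaks it stood lower at each later age, at percentile 97.8 at E18.5, 96.6 and 95.8 at P1, 95.0 and 93.3 at 2 weeks, and 91.4 and 91.3 at 12 weeks. The peak at Nr2f1 (COUP-TF1) was 2451 bases wide at E18.5, 2530 and 2598 at P1, 6555 and 8058 at 2 weeks, and 18254 and 19202 at 12 weeks, and these postnatal widths did not overlap between ages. Nr2f6 coverage was 43.3% at E18.5, 26.0% and 26.2% at P1, 32.8% and 24.0% at 2 weeks, and 75.3% and 35.7% at 12 weeks, and the 12-week female library stood far above the male. The 12-week values at equal covered length were 44.6% and 35.7%, and the mean difference between 12 weeks and P1 went from 29.4 to 14.0 points. Nr6a1, known from germ cells and early embryos, was covered over 1.18% at E18.5, 2.58% and 2.06% at P1, 5.30% and 4.90% at 2 weeks, and 9.45% and 9.21% at 12 weeks. Its 3′ end lies in a broad region that holds a start of another gene and none of Nr6a1. Without that region Nr6a1 was covered over 2.70% and 2.15% at P1, 3.02% and 2.57% at 2 weeks, and 6.35% and 5.25% at 12 weeks, so P1 and 2 weeks overlapped. When the lists were also held to equal covered length, it was at 2.94% and 2.80% at 12 weeks, with the P1 values unchanged.

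Nr2e1 (TLX), a receptor of neural stem cells, was called at E18.5 alone (−log10 q 1.58), and a start of Ostm1 lies within 2 kb. Nr2e3, a photoreceptor gene, was called at E18.5 (1.14), in 2-week males (1.74) and at 12 weeks (2.01 and 1.33), with the E18.5 peak at another start site than the rest. The 3 receptors called at E18.5 and in no postnatal list were Nr2e1, Esr2 and Esrrb (background 7.36%), and none of them was called there at the stronger level. Nr2e3 and Esrrg were the 2 receptors called in both 12-week lists and neither P1 list (background 2.21%), and 0 had the opposite pattern (background 0.52%). Esrrg was the 1 receptor so called in lists cut to equal numbers of peaks (background 1.6%), and 0 were when the covered length was equal (background 0.178%). Nr2e3 lost the pattern when the start had to lie in a peak or came from the GENCODE basic set, and Esrrg lost it with the RefSeq starts added. At a −log10 q of 5 or more the pattern was held by neither, and by 6 receptors that were called in all 7 lists with all peaks (background 3.14%): Ppara, Nr1h4, Esr1, Esrra, Nr3c2 and Nr0b2. The 5 receptors with the lowest mean coverage were Hnf4g, Nr2e1, Esr2, Rorb and Pgr. Nr2e1 and Esr2 were covered over 0.868% and 1.98% at E18.5 and over 0% in all 6 postnatal lists. Pgr was covered over 2.47% at E18.5 and 0.897% in P1 males, and Hnf4g over 0.0660% and 0.121% in the same lists, both with 0% in the other 5. Rorb was at 0.728% at E18.5, 0% and 0.358% at P1, 0.156% and 0.262% at 2 weeks, and 0.609% and 0% at 12 weeks.

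Coverage was higher in both 12-week lists than in both P1 lists for 21 of 33 receptors (background 40.8%) and lower for 0 (background 3.79%). Genes with no peak in any P1 or 12-week list could be neither, and the background includes them. Of the 33 receptors 31 had a peak in such a list, and of the 21938 genes 15585. Of those genes 8959 were higher at 12 weeks and 832 lower. The other background shares in this paragraph have the same limit. Each later postnatal age lay above the one before, without overlap, in 9 receptors (background 14.3%): Rara, Rarg, Rora, Vdr, Rxra, Esrrg, Nr3c2, Nr6a1 and Nr0b2. The median difference between 12 weeks and P1 was 3.52 points for receptors and 0.710 for all protein-coding genes, and 0.353 and 0 with the same covered length per list. The 12-week lists covered more of the genome than the P1 lists (131 and 102 Mb against 58.8 and 56.0 Mb). With the same covered length per list 12 receptors were higher at 12 weeks (background 21.3%) and 5 were lower (background 17%): Rarb, Vdr, Nr1i2, Nr2e3 and Esrrb. Of the 9 that were stepwise in the lists as deposited, Rara, Nr3c2, Nr6a1 and Nr0b2 were also stepwise with the same covered length (Nr6a1 not without the neighbouring region), Rarg, Rora and Esrrg were higher at 12 weeks than at P1 only, Rxra overlapped and Vdr was lower.

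Coverage was also ranked within each list. As a percentile among protein-coding genes, coverage was higher in both 12-week lists for 13 of the 31 receptors in peaks at either age (background 23.8%) and lower for 6 (background 38.7%). The 13 were Rarb, Rarg, Rora, Nr1h4, Vdr, Rxra, Nr2e3, Esr1, Esrrg, Nr3c2, Nr5a2, Nr6a1 and Nr0b2. The largest moves among these were Rora (20.4 percentile points), Vdr (19.3), Nr2e3 (15.8), Nr1h4 (15.6) and Nr6a1 (14.8), and the 6 lower were Thra, Ppara, Nr1i2, Rxrb, Esrra and Esrrb. At equal covered length, the coverage of Vdr and Nr2e3 was lower at 12 weeks (Nr2e3 2.71% and 6.69% at P1 and 0% in both 12-week lists), that of Nr1h4 overlapped, and that of Rora and Nr6a1 was higher. For the 20 receptors called in all lists, the strongest promoter peak was ranked in lists cut to the same number of top peaks. For Rora it lay at either of 2 start sites, depending on the list. It stood higher in both 12-week lists than in both P1 lists for 8 (background 26.7%): Rarg, Ppard, Rora, Nr1h4, Nr2f1, Esr1, Nr3c2 and Nr0b2. It stood lower for 5 (background 30.4%): Thra, Rarb, Rxrb, Nr2c2 and Nr6a1. Nr0b2 stood at percentiles 59.4 and 70.5 at P1 and 83.7 and 84.0 at 12 weeks.

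**Figure D5:**
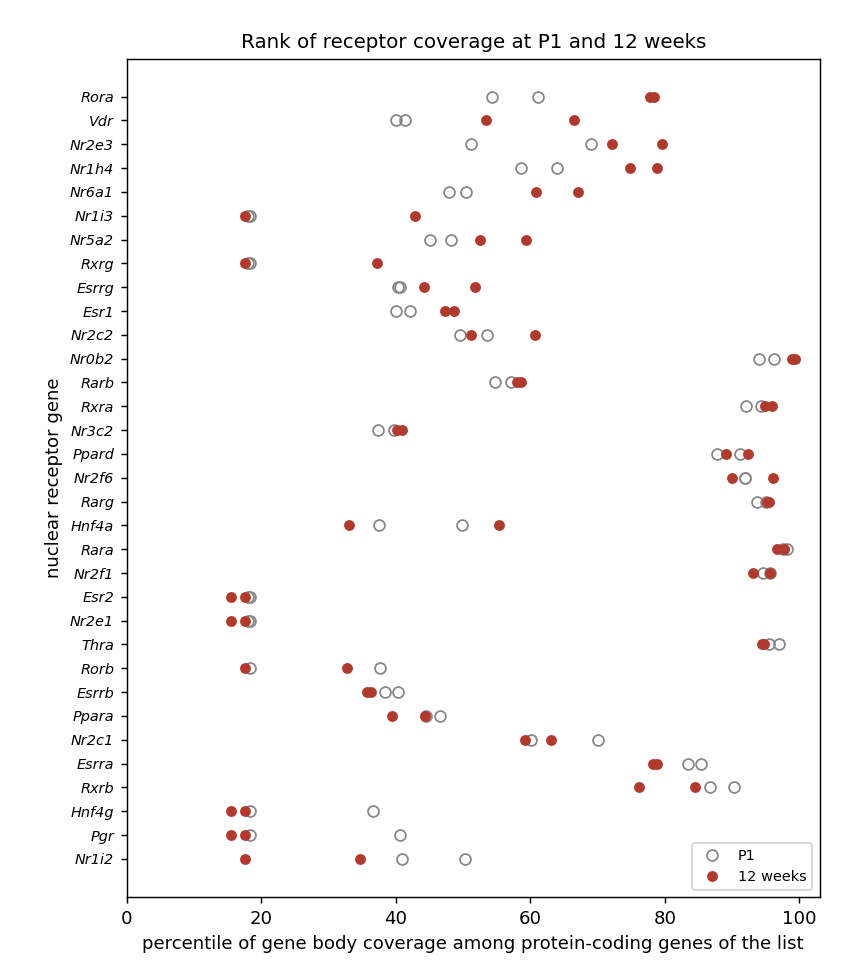
Percentile of gene body coverage among protein-coding genes of the same list for each receptor, with P1 libraries as open grey circles and 12-week libraries as filled red circles, sorted by the difference of the means. Rora, Vdr, Nr2e3 and Nr1h4 lie near the top with no overlap between ages, and Nr1i2, Pgr and Hnf4g lie at the bottom. A gene with no peak takes the shared rank of all genes without one, which differs between lists, so points of uncovered genes show no order.

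Coverage was higher in females than in males at all 3 postnatal ages for 5 receptors (background 16.3%): Rarb, Rora, Esrrb, Nr3c2 and Nr6a1. The male list was higher at all 3 ages for Nr2e3 (1 receptor, background 2.74%). The female list covered more of the genome at each postnatal age. When covered length was equal, only Rarb and Nr3c2 of the 5 kept the order, with Nr2c2 added (3 receptors, background 9.53%), and the male list was higher for Thra and Ppard (2 receptors, background 4.64%) and no longer for Nr2e3. Of 507 merged regions within 20 kb of a receptor, 0 were called in the 3 female lists and no male list (background 0.216%), and 0 in the 3 male lists and no female list (background 0.0312%).

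Of these 507 regions, 80 were called in all 7 lists (background 13.2%) and 160 at E18.5 alone (background 43.5%). Against P1, 62 regions were called in both 12-week lists and in neither P1 list (background 7.46%), and 0 in both P1 lists and neither 12-week list (background 1.21%). The crossed patterns, a female list of one age with the male list of the other, gave 0 and 3. Against 2 weeks, 35 regions were restricted to 12 weeks (background 4.6%) and 0 to 2 weeks (background 0.438%), with crossed counts of 2 and 8. Between P1 and 2 weeks, 23 were restricted to 2 weeks (background 2.82%) and 1 to P1 (background 1.61%), with crossed counts of 4 and 0. With the same covered length per list the first comparison turned, with 1 of 273 regions near receptors restricted to 12 weeks and 35 to P1 (12.8%). Over all 80834 merged regions under that setting the shares turned too, to 0.192% and 16.3%. Under the same setting 3 were restricted to 2 weeks (background 1.03%) and 18 to P1 (8.26%) in the comparison of those ages, and 3 to 12 weeks (0.0953%) and 14 to 2 weeks (5.83%) in the third.

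The 62 regions lay near 20 receptors. Rora, the longest gene, had 21 of them (33.9%) against 105 of all 507 (20.7%), 20 in its introns, and 8 of the 21 were also called in both 2-week lists. Esrrg had 6, Esr1 5 and Nr6a1 4. Of the 62, 42 lay in introns (67.7%, against 58.2% of the 507), 11 at promoters (17.7%, against 19.1%), 6 over exons (9.68%, against 11.2%) and 3 between genes (4.84%, against 11.4%), and 15 were also called at E18.5. Those with the highest −log10 q in both 12-week lists, by the lower of the values, were introns of Esr1 (chr10:4675168-4675655, 9.25 in females and 5.41 in males) and of Nr1h4 (chr10:89457960-89460068, 5.25 and 6.06), both named after their values had been seen. By the lowest percentile among the lists that called it, the Esr1 intron at chr10:4897313-4899430 stood first, with a −log10 q of 2.98 in females and 2.88 in males and no peak in the other 5 lists. By the same measure, the first regions among those called in all 7 lists were the promoter of Ice2 near Rora (chr9:69397361-69399127), a region that holds the promoters of Rxrb, Slc39a7, Ring1 and H2-Ke6 (chr17:34022573-34034500), and the promoters of Bad and Gpr137 near Esrra (chr19:6939298-6943957).

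Within the receptor genes and 20 kb on each side, the base-pair Jaccard index (shared bases over all bases in peaks) was 0.558 between the P1 lists, 0.646 between the 2-week lists and 0.665 between the 12-week lists. Pairs of different age averaged 0.469, a difference of 0.154 from same-age pairs (exact one-sided permutation p = 0.0667 over 15 pairings, the smallest p this design allows). As a share of the smaller list the difference was -0.0755. Same-sex and opposite-sex pairs of different ages both averaged 0.469 (exact one-sided permutation p = 0.5 over 4 arrangements, of which the smallest possible is 0.25).

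Coregulators, through which receptors act, were marked throughout: promoters of all 18 listed, among them the p160 coactivators, CBP and p300, the NCoR corepressors and PGC-1 alpha and beta, were called in all 7 lists (background 55.5%, with 19.4% in some and 25.1% in none). Of 7 listed targets of estrogen-related receptors, 6 were called in all lists and Perm1, a regulator of muscle oxidative genes, in both 2-week lists and 12-week males. Of 18 targets of lipid and xenobiotic receptors, 10 were called in all lists, 2 in some and 6 in none, against the same background. Slc51b, a subunit of the bile acid exporter and a known FXR target, was called in the 12-week lists alone. Its gene body coverage was 4.33% at E18.5 and 1.98% and 1.79% at 12 weeks. Other bile acid genes of that set did not share its pattern: Slc51a and Abcb11 were called in no list, and Fgf15 at E18.5 alone. Of 14 targets of steroid, vitamin D and thyroid hormone receptors, 7 were called in all lists, 4 in some and 3 in none, and Hr, a thyroid-responsive corepressor, was called at E18.5, in both 2-week lists and in 12-week females.

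Markers of other cell types whose promoter calls differed between ages were the red cell genes Hba-a1 and Slc4a1 (called at E18.5 and P1 alone), the glial gene S100b (E18.5 and P1 alone), the macrophage genes Cd68 and Csf1r (in both 12-week lists and no 2-week list) and Pnmt, which makes adrenaline (in both 2-week lists and no P1 list). Of 6 immune markers, 1 was called at E18.5, 0 and 2 at P1, 0 and 0 at 2 weeks, and 4 and 2 at 12 weeks, with Cd3e and Cd79a in no list. Of 6 red cell markers the counts were 4, then 6 and 5, 2 and 3, and 3 and 2. Red cell counts were thus lower at 2 and 12 weeks than at P1, and the immune count was highest in 12-week females. Gene body coverage of every listed endothelial marker was higher in both 12-week lists than in both P1 lists. Kdr, for example, was at 9.56% and 13.7% at P1 and 67.4% and 41.8% at 12 weeks. The same held for the cortex markers except Star and Mc2r, which overlapped, and among chromaffin markers for Chgb alone. The part of these markers in the receptor values was not tested.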

How the data were processed

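The data are H3K27ac ChIP-seq peaks of 7 libraries, each from pooled glands. Groups were taken from the labels. An input library of 12-week females was not used here. Per the submitters' processing notes the tools were CASAVA 1.8.2, Bowtie2 2.3.4.3, MACS2 2.1.1 and deepTools 3.2.2.0 with the mm10 genome (GRCm38). The authors deposited 1 broad peak list per library, with each peak's position, its fold enrichment (a ratio over the caller's background) and its −log10 p and −log10 q. These are the authors' own values per peak and were used to rank, describe or filter peaks within a list. Where −log10 q values of different lists are set side by side, as for Esr1 and Nr2c2, their order can also depend on depth, which is unknown. The filters and cutoff are not given in the sources used here. The lowest −log10 q was 1.01 to 1.12. There were 0 columns without a sample.

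Only the 19 autosomes and both sex chromosomes were kept, which left out 6 to 257 scaffold peaks per list. Of the peaks used, 0 ended past their chromosome on GRCm38. Starts, genes and exons came from the full GENCODE M21 set. Peaks were merged across lists into 150496 regions, with 1 shared base enough for a call. Percentiles of coverage are among protein-coding genes of the same list. With 1 library per group, only similarity was tested, by exact permutation. The members and gene lists were chosen with earlier results of these data known. All receptors are named with their promoter class. Values in every list are given for receptors called in some lists, for the 5 with the highest and the 5 with the lowest mean coverage, and for the 5 with the largest difference between P1 and 12 weeks. Regions are the 3 strongest by lowest rank per class, and listed genes are named when their calls differ between postnatal ages. Other receptors with full values (Nr1h4, Nr5a2, Rora, Rxrb, Rarb, Esr1, Nr3c2, Esrra, Nr2c2, Nr2f1 and Nr6a1) were chosen after their values were seen. Calls and coverage were tested on simulated data of 2000 genes: 100% of promoter calls were recovered, and 0 of 14000 coverage values differed from bedtools 2.31.1. Promoter peaks were ranked in lists cut to the same number of top peaks. Alternatives were a −log10 q of 5 or more, equal list lengths, other windows and other start sets. Software was scipy 1.17.1, pandas 2.3.3, numpy 2.4.6 and Python 3.11.15.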

Additional observations from a re-analysis of the deposited data

Results flagged for a closer look

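In 4 receptors gene body coverage moved in opposite directions in the sexes between P1 and 12 weeks. Each value below is 12 weeks minus P1 in percentage points, from 1 library per age and sex, and the difference between the sexes was not tested. For Rxrb it was -3.08 in females and 6.72 in males. For Hnf4a it was -1.78 in females and 4.52 in males. For Rorb it was 0.609 in females and -0.358 in males, and for Esrrb 0.639 and -0.107. At equal covered length, chosen after seeing the data, Esrrb fell by 0.411 in females and 0.485 in males, Rorb was at 0 change in females and -0.358 in males, Hnf4a at -1.79 and 0.0393, and Rxrb at -3.08 and 6.72. Opposite directions were seen in 12.1% of the receptors and in 14.6% of all protein-coding genes, and at equal covered length in 21.2% and 16.6%.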

How the results depend on the processing

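No paired analysis was possible because every group has replicate number 1 alone, so a replicate block is the same for all libraries. The sexes were compared within an age only by the order of their values, and a model of age and sex over the 6 postnatal libraries was not run. With peaks of −log10 q 5 or more, 9 receptors were called in all 7 lists and 13 in none, with 14 at E18.5, 10 and 13 at P1 (female, male) and 16 and 13 at 2 weeks. The number called in no list was 2 with the same number of peaks, with the same covered length and with a window of 0.5 kb, 3 when the start had to lie in a peak, and 5 from the most upstream start. Leaving out 1 library gave 1 to 4 called in none, the 4 without E18.5. Receptors higher and lower in coverage at 12 weeks numbered 12 and 5 with the same covered length and 13 and 6 by percentile, and 1 was lower with the same number of peaks. Restricted regions were counted in 6 directions. For P1 against 2 weeks, 2 weeks against P1, P1 against 12 weeks, 12 weeks against P1, 2 weeks against 12 weeks and 12 weeks against 2 weeks they numbered 18, 3, 35, 1, 14 and 3 with the same covered length. With the same number of peaks, P1 against 2 weeks gave 3, P1 against 12 weeks 3, 12 weeks against P1 32, 2 weeks against 12 weeks 2 and 12 weeks against 2 weeks 15. With the stronger peaks, P1 against 2 weeks gave 0, 2 weeks against P1 6, 12 weeks against P1 28 and 12 weeks against 2 weeks 14. When 50% of a region had to be covered, P1 against 2 weeks gave 4, P1 against 12 weeks 2, 12 weeks against P1 98, 2 weeks against 12 weeks 3 and 12 weeks against 2 weeks 66. Regions overlapping the gene itself gave 0 for P1 against 2 weeks. The coverage difference of Rxra went to -3.07 and of Ppard to -1.25 points with the same covered length. The same-age difference in similarity was -0.0755 as a share of the smaller list. The same-sex difference, 0.000359, was -0.000250 as that share, -0.00120 with the same number of peaks and -0.00349 with the same covered length. The same covered length drops the weaker peaks of the longer lists by construction; other causes were not tested. In lists as deposited, the promoter peak ranked higher at 12 weeks in 12 receptors and lower in 2. Nr5a2 lost its call in 2-week males and both 12-week lists with the same covered length. Without promoter regions of other genes, 21 receptors were higher and 0 lower. The percentile, neighbour, sex order, leave-one-out and RefSeq alternatives were chosen after seeing the data. Depth is unknown, so differences in sequencing depth or enrichment cannot be told apart from differences between groups.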
